A study of Bos taurus with 15 samples.

Results

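Libraries with a strong interferon response were compared with libraries with a weak one among 15 endometrial biopsies of beef heifers (Bos taurus). For each library, CPM was computed (counts scaled to the library total), and log2(CPM + 1) was averaged over ISG15, MX1, MX2, RSAD2, OAS2 and IFI6. The 5 libraries with the highest average form the strong group, the 5 lowest form the weak group, and the 5 between them are called intermediate, so 10 of 15 libraries were compared. The libraries were thus chosen by their measured levels of these 6 genes, with fertility class ignored. Differences between them are given as descriptions with no p-value.

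The heifers were classed by fertility, with 5 animals labelled High-fertile, 5 Sub-fertile and 5 Infertile, and each library carries its own animal number. Per the labels' protocols, all had their cycles synchronised with prostaglandin F, GnRH, progesterone and estradiol. All received an embryo produced in vivo on day 7 into the uterine horn on the side of the corpus luteum. The uterus was flushed and endometrium was then taken with biopsy forceps from the same horn, on day 14 of pregnancy. The age of the heifers, how they were classed and what each flush recovered were not used here. The strong group held High-fertile replicates 1, 2 and 5, Sub-fertile replicate 4 and Infertile replicate 4. The weak group held High-fertile replicate 3, Sub-fertile replicate 1 and Infertile replicates 1, 2 and 3.

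Interferons are secreted proteins that bind receptors on the cell surface. The type I receptor, made of IFNAR1 and IFNAR2, acts through the kinases JAK1 and TYK2 on a transcription factor complex that includes STAT2 and IRF9 and switches on a large set of interferon-stimulated genes. In ruminants the trophoblast of the elongating conceptus secretes interferon tau, a type I interferon, which acts on the endometrium and is the signal by which the mother recognises pregnancy. Many of the genes it induces in the uterus are the same antiviral genes that other type I interferons induce.

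Total counts ran from 38017136 to 62858724 per library. High-fertile replicate 1 and Infertile replicate 2 had no count of RN18S1, a ribosomal RNA entry that had 1130 to 4942 counts in the other 13 libraries, and 1 of them is in each group. A set of 5 libraries, made up of Infertile replicates 3 and 5 with Sub-fertile replicates 1, 2 and 5, held 43.9 to 54.2 CPM of LOC100295881, against 0.430 to 1.55 CPM in the other 10. Of these 5, 2 are in the weak group, 3 are intermediate and 0 are in the strong group. The labels name no batch, so this 5-library set is known only from its counts. The remaining 8 libraries included 4 of the strong and 2 of the weak group.

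The score formed a gradient without a clean break. It was 6.77 in High-fertile replicate 1, 6.75 in Sub-fertile replicate 4, 6.35 in High-fertile replicate 5, 6.04 in High-fertile replicate 2 and 5.56 in Infertile replicate 4. The first library outside the strong group, Infertile replicate 5, scored 5.20. In the weak group the score lay from 4.02 in High-fertile replicate 3 to 4.35 in Infertile replicate 2, with High-fertile replicate 4 just outside at 4.48. The weak libraries lay close together (SD 0.150, n = 5) and the strong ones were spread more widely (SD 0.509, n = 5).

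Each of the 6 genes was higher in every strong than in every weak library, which the choice of libraries favours. ISG15, a ubiquitin-like protein that is attached to other proteins, was at 96.8, 90.5, 65.4, 47.9 and 25.4 CPM in the strong libraries, taken from the highest score down. In the weak libraries it was at 6.09, 9.82, 5.78, 4.92 and 4.11 CPM. It had the widest range of the 6, 23.5-fold between High-fertile replicate 1 and High-fertile replicate 3. MX1, an antiviral dynamin-like GTPase, was at 409, 547, 456, 376 and 234 CPM against 147, 95.9, 88.1, 80.9 and 95.5 CPM. Its top library was thus Sub-fertile replicate 4, not the library with the top score.

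The remaining 4 genes differed in which strong library led. MX2, a related GTPase, was at 85.7 CPM in High-fertile replicate 1 and at 20.9 to 40.8 CPM in the other strong libraries, against 4.31 to 9.89 CPM in the weak ones. RSAD2 (viperin, which makes an antiviral nucleotide) was at 201 CPM in Sub-fertile replicate 4 and 45.0 to 110 CPM in the other strong libraries, against 14.6 to 25.6 CPM. OAS2, an oligoadenylate synthetase that senses double-stranded RNA, was at 6.88 to 12.9 against 2.0 to 4.31 CPM. IFI6, an interferon-induced membrane protein, was at 223 to 315 against 62.1 to 127 CPM, and was the most even of the 6 within the strong group, with a range of 1.41-fold. High-fertile replicate 3, last by score, held more IFI6 (127 CPM) than any other weak library. Per length, in the deposited FPKM, IFI6 was the most abundant of the 6 in the strong libraries, at 295, with MX1 at 132 and ISG15 at 109.6, and OAS2 the least, at 2.98.

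**Figure D1:**
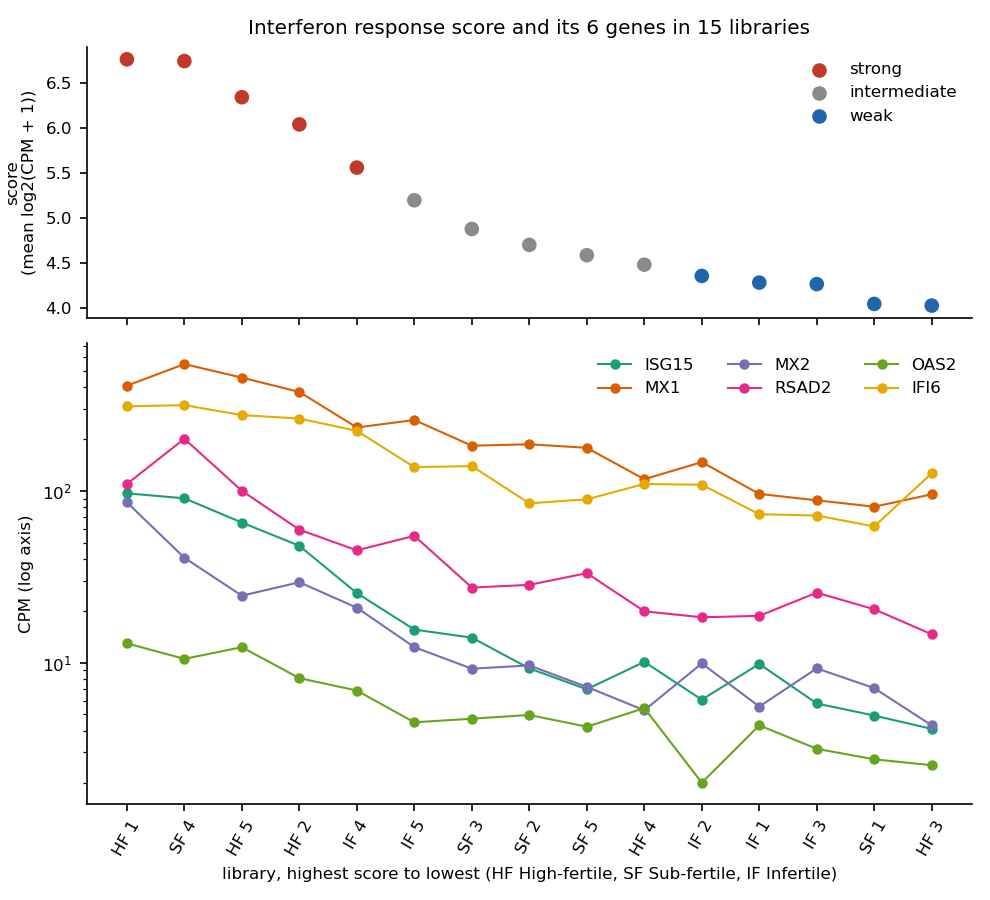
The upper panel plots the score (mean log2(CPM + 1) of 6 genes) of each library, and the lower panel the CPM of the 6 genes on a log axis, with libraries in the order of the score. The score declines from 6.77 to 4.02, MX2 peaks in High-fertile replicate 1 at 85.7 CPM, and RSAD2 peaks in Sub-fertile replicate 4 at 201 CPM.

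Outside these 6 genes, few separated the strong from the weak libraries by a wide margin, and with all 10 libraries most of those that were higher are classical interferon-stimulated genes. A gene was called when all 5 strong libraries lay on one side of all 5 weak libraries and the group means differed by at least 1 on the log2(CPM + 1) scale. By this rule 29 of 19956 genes were higher (0.145%) and 2 were lower (0.0100%). Without the minimum difference, 178 (0.892%) were higher and 55 (0.276%) lower. The median difference over all genes was 0.00. Of the 29 genes, 21 stand in 7 interferon lists (antiviral effectors, ISG15 conjugation, sensors, ligands, receptors and signalling, MHC class I, and guanylate-binding proteins with chemokines), which together had 134 tested members. Those lists held 0 of the lower genes. They were chosen with earlier results of these data known, which can favour such an overlap. A further 109 genes were higher and 63 lower by at least 1 with groups that overlapped.

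The count of 29 depended on particular libraries. It was 110 without High-fertile replicate 3, and 28 to 42 when any other compared library was left out. The cause was not tested. With High-fertile replicate 1 and Infertile replicate 2 set aside and the other 13 libraries ranked again, 14 genes were higher, of which 12 are among the 29, and 0 were lower. Within the 8 libraries outside both sets, 4 strong against 2 weak, 19 of the 29 were called again, among 77 genes that were higher. In the larger sets list members were no longer the majority, at 24 of 110 without High-fertile replicate 3 and 22 of 77 within the 8 libraries.

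**Figure D2:**
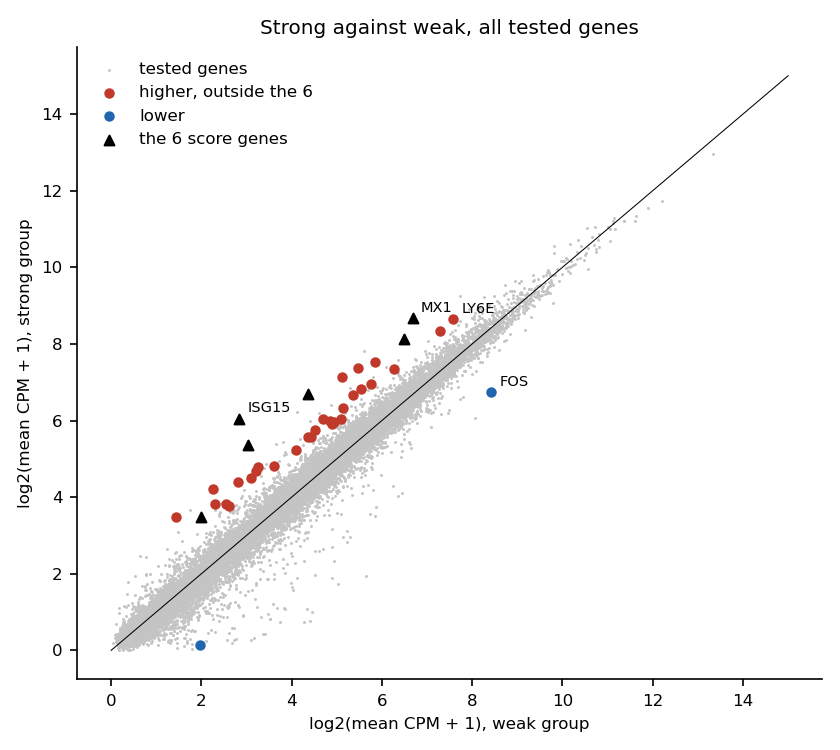
Each point is a gene tested, with log2(mean CPM + 1) of the 5 weak libraries on the x axis and of the 5 strong libraries on the y axis, and the line marks equal values. The 29 red genes and the 6 score genes (triangles) lie above the line, and FOS and LOC523126 (blue) lie below it.

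Antiviral effectors made up the largest block. Of 54 listed genes 48 are in the table and 47 were tested. Of these 14 were called higher and 0 lower, against 0.145% and 0.0100% of all genes outside the score. The difference was positive for 46 of 47, with a list median of 0.63. IFI27, a small protein of mitochondria and the nuclear envelope, was at 133, 129, 244, 149 and 161 CPM in the strong libraries (highest score first) and at 26.3, 49.1, 31.9, 33.2 and 77.2 CPM in the weak ones (difference 1.95). Its top library was High-fertile replicate 5. ZBP1, a sensor of Z-form nucleic acid that can trigger cell death, was at 21.5, 20.3, 24.4, 13.6 and 8.24 against 3.18, 3.20, 4.40, 2.60 and 5.61 CPM (difference 1.90). The lowest strong library for ZBP1 was Infertile replicate 4, which also had the lowest score of its group.

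IFIT1, which binds foreign RNA caps, followed RSAD2 in its order among the strong libraries: it was highest in Sub-fertile replicate 4 (240 CPM), then in High-fertile replicates 1 (170) and 5 (151), and lower in High-fertile replicate 2 (84.6) and Infertile replicate 4 (52.7). In the weak libraries it was at 25.3 to 47.4 CPM. Its relatives varied less, with differences of 0.34 for IFIT2, 0.28 for IFIT3 and 0.30 for IFIT5, and overlapping groups for all of them. OAS1Y, an oligoadenylate synthetase, was at 216, 196, 205, 160 and 138 CPM against 42.6, 71.5, 59.8, 56.5 and 50.3 CPM. OAS1Z (difference 1.44) and OAS1X (1.17) were called too. These 3 are near-identical copies whose reads could have been split between them, so their separate values are uncertain. OASL, a related gene, was at 0.175 to 0.740 against 0.105 to 0.387 CPM.

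Other called effectors had smaller differences. RTP4, a chaperone of receptor transport, was at 17.6 to 37.5 against 6.79 to 10.1 CPM and IFI44 at 14.0 to 27.3 against 4.33 to 7.90 CPM. CMPK2, a mitochondrial nucleotide kinase that is the neighbour of RSAD2 in mammals, was at 36.9 to 94.5 against 21.8 to 30.8 CPM, again highest in Sub-fertile replicate 4. IFITM2, a membrane protein that blocks virus entry, had a difference of 1.23. IFITM3 had 1.08 with overlap. IFITM1 was at 43.7 to 70.1 CPM in 4 strong and 15.2 to 36.8 CPM in 4 weak libraries, but at 0.0493 CPM in High-fertile replicate 1 and 0.129 CPM in Infertile replicate 2, the same libraries that had no RN18S1 count. PLAC8 barely met the rule: its lowest strong library was at 6.72 CPM and its highest weak library at 6.70 CPM, and the intermediate libraries (7.99 to 11.2 CPM) lay inside the strong range. Below the minimum difference, with groups that did not overlap, stood LGALS3BP (0.94), XAF1 (0.89), SHISA5 (0.87) and EIF2AK2, the RNA-activated kinase PKR (0.63). SAMHD1, at 0.02, and UBD, at -0.16, did not follow the score.

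Of 7 tested genes for attaching ISG15 to proteins and removing it, 3 were called higher and 0 lower (list median 0.67). The shares over all genes outside the score were 0.145% and 0.0100%. UBA7, the activating enzyme, was at 70.3, 74.0, 82.9, 50.8 and 46.9 CPM in the strong libraries and 16.6, 23.2, 24.4, 31.1 and 29.5 CPM in the weak ones. HERC6, a ligase of this system, was at 62.6 to 128 against 33.1 to 53.4 CPM. USP18, which removes ISG15 and restrains the type I receptor, was at 7.30 to 18.7 against 3.88 to 5.79 CPM. Every strong library thus held more of each than any weak library did. UBE2L6, the conjugating enzyme, had a smaller difference (0.67), and its groups overlapped because High-fertile replicate 3 was at 28.4 CPM. ARIH1, a ubiquitin ligase, had a difference of -0.16.

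Among sensors of foreign nucleic acid, 2 of 11 tested were called higher and 0 lower (0.145% and 0.0100% over all genes). Both called sensors belong to the RIG-I-like family. DDX58, which encodes RIG-I, was at 116, 137, 126, 102 and 81.1 CPM in the strong libraries and 29.4, 45.8, 58.5, 52.3 and 40.7 CPM in the weak ones. DHX58 (LGP2) was at 38.1 to 52.7 against 17.8 to 23.1 CPM. IFIH1 (MDA5), the third member, had groups that did not overlap but differed by 0.85. The endosomal receptors TLR3 (0.00), TLR7 (-0.11) and TLR8 (-0.17) and the adaptor MAVS (-0.02) did not separate the groups.

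In the signalling chain, 2 of 28 tested genes were called higher and 0 lower (0.145% and 0.0100% over all genes), with a list median of 0.13. Both encode transcription factors downstream of the receptor. IRF9 was at 84.6, 81.7, 94.5, 74.1 and 60.6 CPM against 29.0, 37.2, 28.9, 32.1 and 43.1 CPM, and IRF7 at 34.6 to 58.7 against 10.4 to 24.98 CPM. STAT2, which binds IRF9, varied far less. It was at 85.1, 90.8, 101, 87.7 and 93.3 CPM in the strong libraries and 79.5, 69.0, 88.1, 80.9 and 89.5 CPM in the weak ones, a difference of 0.17 with overlap. The receptor chains and kinases were at like levels in both groups: IFNAR1 at 85.8 to 107 against 92.0 to 113 CPM (-0.13), IFNAR2 at 0.08, JAK1 at 0.02 and TYK2 at 0.11. IRF1, which responds to several cytokines, differed by 0.60 with overlap. The inhibitors SOCS1 (-0.02) and SOCS3 (-0.06) did not separate the groups.

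The interferon genes that were tested were at low levels, and their groups overlapped. A count of 0 allows up to 0.0477 to 0.0789 CPM, depending on the library, and covers counting error only. Of 22 listed ligands 13 are in the table and 3 were tested, of which 0 were called. Only 0.145% of all genes outside the score were called higher and 0.0100% lower. Groups without overlap were seen for 0.892% (higher) and 0.276% (lower), so a count of 0 among 3 genes says little. IFNT2, an interferon tau gene, was at 0.395 to 1.18 CPM in the strong and 0.235 to 1.16 CPM in the weak libraries. IFNB1 was at 0.652 to 1.5 against 0.333 to 2.16 CPM, and IFNE at 0.838 to 1.31 against 0.588 to 1.13 CPM. The entry IFN-TAU did not exceed 0.0430 CPM, and IFNG, the type II interferon, did not exceed 0.120 CPM in the compared libraries. Interferon genes have near-identical copies, so these values are uncertain.

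No gene of antigen presentation was called. Over all genes outside the score 0.145% were called higher and 0.0100% lower, so a count of 0 in lists this short says little. In the MHC class I list 0 of 18 tested genes were called, and 14 had a positive difference (median 0.40). The groups of 3 members did not overlap, with the strong group higher, a pattern that 0.892% of all genes showed. PSMB9, a subunit of the immunoproteasome, was at 13.9 to 20.8 against 7.02 to 12.6 CPM (difference 0.66), and TAPBPL and PSME2 had differences of 0.51 and 0.25. B2M, the light chain of class I molecules, was at 324 to 579 against 286 to 528 CPM. In the class II list 0 of 12 were called, although some members differed widely with overlap. CIITA, which controls class II transcription, did not overlap (9.67 to 18.3 against 5.29 to 8.82 CPM; difference 0.72). BOLA-DQA1 went the other way, at 0.0204 to 0.366 CPM in the strong and 0.142 to 15.9 CPM in the weak libraries, and its difference of -2.38 was the most negative of all genes tested. BOLA-DQA2 differed by 1.09 and BOLA-DQB by 0.74. BOLA-DQA1 was above 1 CPM in 6 of 15 libraries. BOLA genes vary between animals and have close copies, and the part of read assignment was not tested.

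Among guanylate-binding proteins and interferon-inducible chemokines 0 of 20 tested members were called, with a median of 0.02, or 0.28 within the 8 libraries. For a list of this size that count is near the share over all genes (0.145% higher and 0.0100% lower). GBP2 had the largest difference of the list, 1.12 with overlap (2.80 to 21.9 against 1.22 to 6.73 CPM), and 2.11 within the 8 libraries, while GBP5 had -0.13. GBP4 separated the groups (61.0 to 114 against 20.6 to 59.3 CPM; difference 0.96) and lay just under the minimum difference. The chemokine CXCL10 was at 2.34 to 13.6 against 3.37 to 8.84 CPM, and CXCL9 (-0.28) and CXCL11 (-0.23) leaned to the weak group. IDO1, a tryptophan-degrading enzyme induced mainly by interferon gamma, differed by 0.04.

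**Figure D3:**
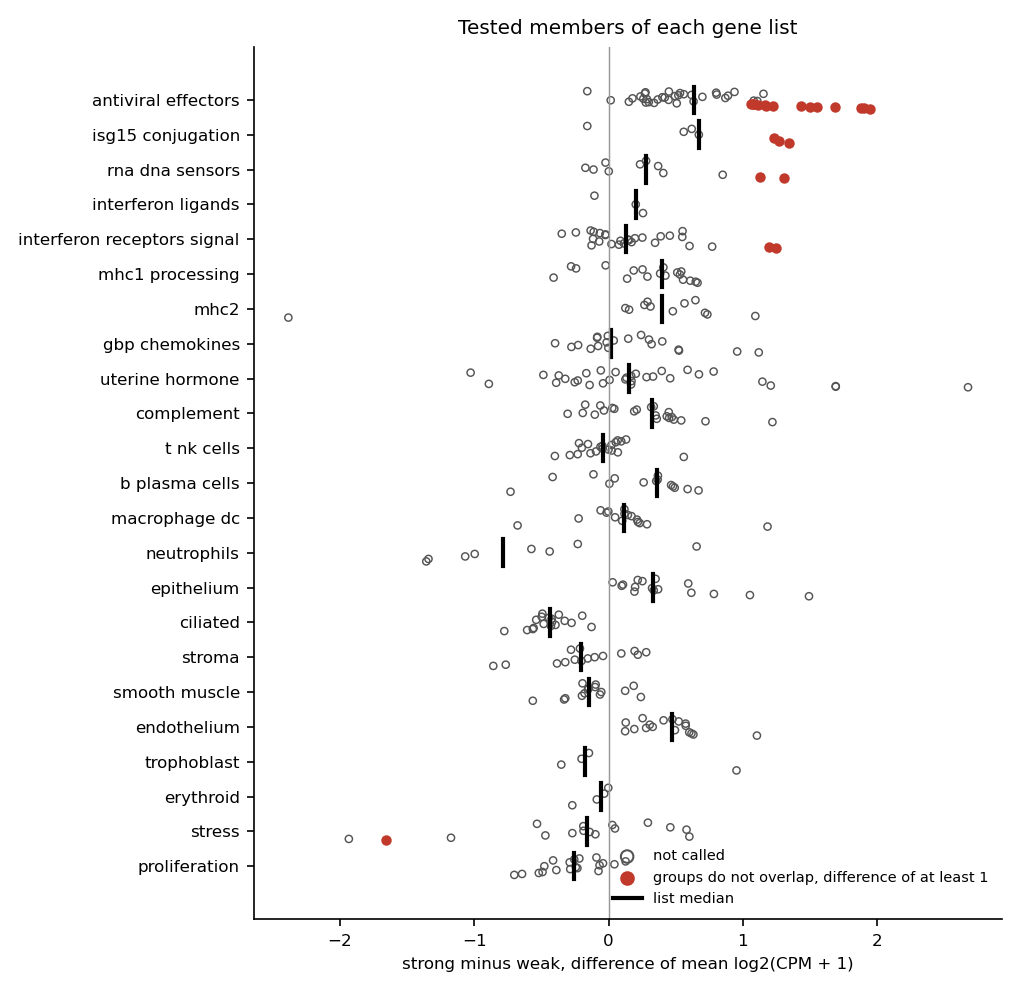
Each circle is a tested member of a gene list, placed by the difference of mean log2(CPM + 1) between the strong and weak groups, and black bars are list medians. Filled circles mark called members: 14 in the antiviral list, 3 in the ISG15 conjugation list, 2 each among sensors and signalling genes, and FOS on the lower side of the stress list.

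Among the 29 higher genes, 8 lie outside the interferon lists, and several of these are known interferon-stimulated genes under other names. LOC100298356 and LOC618737, both described in the table as bone marrow stromal antigen 2 (tetherin, which holds budding viruses at the cell surface), had differences of 2.05 and 1.5. LOC618737 was at 9.69 to 17.2 against 2.80 to 4.54 CPM. LOC509283, described as the ubiquitin ligase RNF213, was at 206 to 412 against 114 to 201 CPM. LGALS9-2, a galectin by its symbol, was at 53.7 to 85.1 against 17.2 to 39.8 CPM. LY6E, a surface protein of the Ly6 family that restricts some viruses, was at 362, 416, 314, 350 and 546 CPM against 169, 228, 196, 129 and 233 CPM. It was highest in Infertile replicate 4, which had the lowest score of the strong group.

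The other 3 of the 8 are not usually counted as interferon-stimulated. TNFRSF4 (OX40), a costimulatory receptor of activated T cells, was at 13.1, 29.4, 39.9, 13.2 and 11.4 CPM against 10.1, 10.1, 3.103, 3.87 and 10.6 CPM. The intermediate High-fertile replicate 4 held 33.0 CPM, so TNFRSF4 did not track the score between the groups. PROM2, a membrane protein of epithelial protrusions, was at 116, 170, 164, 226 and 132 CPM against 91.1, 27.4, 87.2, 70.7 and 101 CPM, with Sub-fertile replicate 3 at 149 CPM among the intermediate libraries. NCDN, a neuronal protein also found in other tissues, was at 48.1 to 95.6 against 18.4 to 44.1 CPM. NCDN and the LOC genes were picked after their values had been seen.

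**Figure D4:**
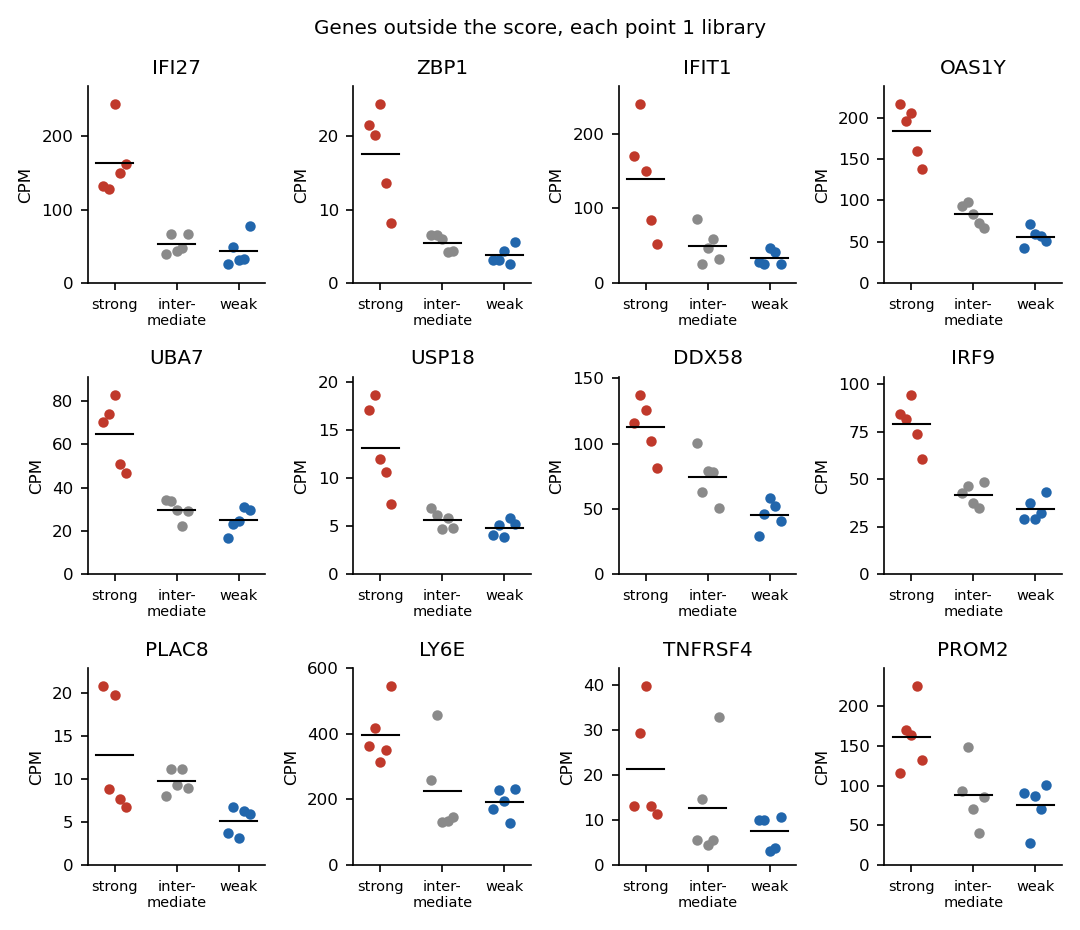
Genes outside the score are plotted in CPM, with 1 point per library, bars at group means and 5 libraries per group. OAS1Y, IRF9 and UBA7 show a step between the strong group and the rest, DDX58 grades through the intermediate libraries, and for PLAC8, LY6E, TNFRSF4 and PROM2 intermediate libraries reach into the strong range.

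Part of the called genes also separated the 5-library set, all of whose members are weak or intermediate. For 6 of the 29 genes every library of that set lay below every other library (20.7%), a pattern that 11.2% of all genes tested showed. Because the set has weak but no strong members, the rule by which the 29 genes were called favours this pattern. The 20.7% and 11.2% are therefore not a like comparison. PARP10, a mono-ADP-ribosyltransferase, was at 14.97 to 19.7 CPM in the set and 36.3 to 68.9 CPM elsewhere, and its difference of 1.08 was 0.42 within the 8 libraries. IRF7 was at 10.4 to 19.2 CPM in the set against 21.4 to 58.7 CPM, DHX58 at 15.9 to 20.02 against 21.7 to 52.7 CPM, and TNFRSF4 at 3.103 to 5.64 against 10.1 to 39.9 CPM. LGALS9-2 and NCDN were the other two. The 10 genes not called within the 8 libraries were IRF9, IRF7, DHX58, CMPK2, PARP10, PLAC8, LGALS9-2, LY6E, TNFRSF4 and NCDN. Their differences there were 0.98 for CMPK2 and DHX58, 0.93 for TNFRSF4, 0.92 for IRF9, 0.91 for IRF7, 0.84 for LGALS9-2, 0.79 for LY6E, 0.56 for PLAC8 and 0.44 for NCDN, so several lay just under the minimum of 1. Among genes called again, ZBP1 differed by 1.64 there and IFIT1 by 2.11. That set is not named in the labels, and its part in the remaining genes was not tested.

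The intermediate libraries lay between the groups for most, but not all, of the called genes. The median of the 5 intermediate libraries fell between the medians of the strong and weak groups for 19 of the 29 genes (65.5%), and for 24.3% of all genes outside the score. The 29 genes were called for widely separated groups, which by itself favours a median in between. The 65.5% and 24.3% are therefore not a like comparison. The genes whose pattern was most like the score over all 15 libraries, by Spearman rank correlation among genes with a mean of at least 1 CPM, were OAS1Y (0.95), HERC6 (0.93), LOC618737 (0.92), OAS1Z (0.92), DDX58 (0.90), IFI44 (0.90), CMPK2 (0.89), SP110 (0.89), ZNFX1 (0.88) and RTP4 (0.87), with ZBP1 level with RTP4. These correlations share libraries with the score and are a description. ZNFX1, an RNA helicase-like antiviral sensor, and SP110, a nuclear body protein, had differences of 0.85 and 0.51, under the minimum, so a close rank order and a large difference were not the same genes throughout. IFI27, the second of the 29 by size of difference, had a correlation of 0.65.

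On the lower side, FOS, an immediate early transcription factor that responds rapidly to many stimuli, was at 135, 44.1, 144, 93.4 and 116 CPM in the strong and 324, 516, 173, 230 and 459 CPM in the weak libraries (difference -1.66). It was at 62.9 to 312 CPM in the intermediate libraries. Of the 16 tested immediate early and heat shock genes FOS was the 1 called, with a list median of -0.16. Of all genes, 0.0100% were called lower. FOSB was at 2.64 to 10.8 against 9.05 to 61.7 CPM and EGR1 at 54.1 to 134 against 83.2 to 263 CPM, with overlap in both, whereas HSPA1A, a heat shock gene, differed by 0.60 in the other direction. The difference of FOS was -2.40 within the 8 libraries. With High-fertile replicate 1 and Infertile replicate 2 set aside and the rest ranked again it was -1.58, and with OAS2 left out of the score, which exchanged 1 weak library, it was -1.37; neither FOS nor LOC523126 was called in those settings. LOC523126, described as a transporter like multidrug resistance-associated protein 4, was at 0.0493 to 0.159 against 0.320 to 5.10 CPM.

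Of all genes outside the score, 0.145% were called higher and 0.0100% lower, so short lists of markers would seldom hold a called gene. Markers of other cell types gave no called gene in the lists for T and natural killer cells (0 of 20), B and plasma cells (0 of 14), macrophages and dendritic cells (0 of 16) or neutrophils (0 of 8). Their summed levels overlapped between the groups: 46.2 to 87.0 against 56.7 to 89.5 CPM for T and natural killer cells, 44.3 to 307 against 53.9 to 295 CPM for B and plasma cells, and 115 to 215 against 74.8 to 187 CPM for macrophages and dendritic cells. SIGLEC1, a macrophage receptor that type I interferon induces, had the largest difference of the macrophage list (1.18), with 6.81 to 18.3 against 1.41 to 7.42 CPM. Neutrophil markers summed to 45.2 to 140 CPM in the strong group and 23.0 to 95.6 CPM in 4 weak libraries, with 743 CPM in Infertile replicate 2. Of the 8 neutrophil genes 1 had a positive difference, LTF (0.66), and the list median was -0.79, or -0.29 within the 8 libraries. S100A12 differed by -1.36 and S100A9 by -1.34, and without Infertile replicate 2 by -0.53 and -0.82. In bulk tissue, fewer cells of a type and less RNA per cell cannot be told apart.

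Structural cell markers leaned in both directions without a called gene, where 0.145% of all genes were called higher and 0.0100% lower. All 17 endothelial genes tested had positive differences (median 0.48), and their summed level was 1364 to 2440 CPM in the strong and 1105 to 1740 CPM in the weak libraries. Among them CLDN5, SOX17 and EGFL7 were lower in every library of the 5-library set than in any other. All 16 epithelial genes were positive too (median 0.33; 1652 to 2694 against 953 to 1958 CPM), led by the tight junction genes CLDN4 (1.49) and CLDN3 (1.05). All 18 ciliated cell genes were negative (median -0.44; 238 to 767 against 287 to 761 CPM), but within the 8 libraries 15 of 18 were positive (median 0.08). Over all genes outside the score, 10037 of 19956 differences were positive. Smooth muscle varied widely inside both groups, from 1441 to 16306 CPM in the strong and 1552 to 30553 CPM in the weak libraries, with a list median of -0.15, or -2.14 within the 8 libraries, where Infertile replicate 1 is 1 of 2 weak libraries. The part of tissue composition in the interferon genes was not tested.

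No hormone receptor or hormone-regulated uterine gene was called (0 of 32 tested, median 0.15). Over all genes outside the score 0.145% were called higher and 0.0100% lower, so a count of 0 in this list says little. PGR, the progesterone receptor, was at 9.03, 6.52, 6.94, 9.29 and 10.3 CPM against 52.1, 11.9, 2.56, 3.21 and 10.04 CPM, the highest value being that of Infertile replicate 2. ESR1, the estrogen receptor, differed by 0.17. Both were lower in every library of the 5-library set than in any other, PGR at 1.85 to 3.40 against 6.52 to 52.1 CPM and ESR1 at 4.79 to 8.17 against 13.2 to 26.0 CPM. OXTR, the oxytocin receptor, was at 3.53 to 39.5 against 3.29 to 178 CPM. IGFBP1, a secreted binding protein of insulin-like growth factors that serves as a marker of conceptus elongation in cattle, was at 47.7 to 174 against 0.258 to 109 CPM. Its difference of 2.68, with groups that overlapped, was the most positive of all genes tested outside the score. It was 1.75 without Infertile replicate 2. Between strong and weak libraries of the same class, IGFBP1 differed by -0.43 (High-fertile), 1.915 (Sub-fertile) and 4.47 (Infertile), on 1 to 3 libraries a side. PTGS2, the prostaglandin synthase, was at 34.1 to 127 against 1.38 to 63.8 CPM, a difference of 1.69, and 0.90 without Infertile replicate 2. Its differences in the same order of classes were -0.19, 0.85 and 3.115.

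Trophoblast genes were listed to look for conceptus RNA in the biopsies, and part of the list had no count. Of 14 in the table, 7 had no count in any of the 15 libraries, among them CSH2, PRP1, PAG11 and TKDP1, which are defining products of the bovine trophoblast. CDX2 did not exceed 0.316 CPM in the compared libraries. PAG1, listed here as a pregnancy-associated glycoprotein from a family of close copies, was at 2.79 to 13.3 CPM in the strong and 3.55 to 22.6 CPM in the weak libraries. SSLP1 (4.49 to 8.86 against 0.323 to 7.73 CPM) and ELF5 also exceeded 1 CPM in a compared library. The placental products CSH2, PRP1, PAG11 and TKDP1 were thus not detected at this depth. The PAG1 entry had counts in both groups, and whether these came from conceptus RNA was not tested.

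Whether the response genes differed among the labelled classes is a question that the choice of libraries did not use, and it was tested with 1 edgeR quasi-likelihood model over 19962 genes. No gene passed an adjusted p of 0.05 for any difference among the 3 classes (0% of genes), with 1681 at an unadjusted p under 0.05 (8.42%), while the DESeq2 likelihood ratio test passed 34. The unadjusted count ran from 900 without High-fertile replicate 5 to 3072 without Sub-fertile replicate 4. For the 6 score genes the edgeR adjusted p was 0.550 for OAS2, 0.560 for ISG15, 0.564 for MX2, 0.572 for IFI6, 0.664 for MX1 and 0.676 for RSAD2. Without Sub-fertile replicate 4, the 1 strong library of its class, the unadjusted edgeR p was 0.0104 for ISG15, 0.0157 for IFI6, 0.0324 for MX2 and 0.0454 for OAS2, with adjusted p from 0.318 to 0.321. Leaving out High-fertile replicate 1 instead moved them the other way, to 0.350 for ISG15, 0.392 for IFI6, 0.759 for MX2 and 0.311 for OAS2. OAS2 was also at an unadjusted edgeR p of 0.0316 without High-fertile replicate 3. Of the 29 genes, 2 were at an unadjusted p under 0.05 (6.90%), and of the 134 tested interferon list members 6 (4.48%), in the same edgeR test. These shares lie near or under that of all genes. The 29 genes were called from a split of the same libraries that was uneven by class. The strong group held 3 High-fertile and 1 Infertile libraries, and the weak group 1 and 3. Their share is therefore not a like comparison with that of all genes, and no conclusion on class is drawn from it. The score was 5.53 ± 1.21 (SD, n = 5) in High-fertile, 4.99 ± 1.03 in Sub-fertile and 4.73 ± 0.607 in Infertile libraries, and each class held strong and weak libraries.

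The difference between strong and weak libraries of the same class also varied by gene. Between the strong and weak High-fertile libraries (3 against 1) ISG15 differed by 3.74, and between those of the Sub-fertile class (1 against 1) by 3.95. Between the Infertile ones (1 against 3) it differed by 1.71. MX2 differed by 2.94, 2.37 and 1.28 in the same classes. Both are score genes, so these values follow from the ranking that formed the groups. The 1 strong Infertile library, Infertile replicate 4, had the lowest score of the strong group (5.56). IFI27, outside the score, had its largest difference in the Infertile libraries (2.19) and its smallest in the High-fertile ones (1.12). These within-class values rest on 1 to 3 libraries a side and have no test.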

How the data were processed

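Polyadenylated RNA from 15 biopsies was purified on RNeasy columns and made into stranded TruSeq libraries, per the labels' protocols. Per the submitters' processing notes, the tools were FastQC, Subread, featureCounts and edgeR, with the UMD3.1 build. Not given in the sources used here: their versions, strand setting and treatment of multi-mapping reads. The authors deposited raw read counts per gene, which were used for all differences, and FPKM values, which the authors scaled by length and which were used only to compare levels between genes. The table has 32671 entries. Of these, 19962 were kept by filterByExpr with fertility class as the group, so the filter did not use the strong and weak groups. No coordinates or sequences are printed, and 27 entries with names turned into dates were not renamed.

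The libraries, the 23 gene lists and the named genes were chosen with earlier results of these data known. Strong and weak libraries were compared on log2(CPM + 1) with CPM on library totals (Python 3.11.15, pandas 2.3.3), without a test. The class test used edgeR 4.0.16 in R 4.3.3 (TMM factors from 0.936 to 1.04, robust quasi-likelihood F test, Benjamini-Hochberg adjustment over all genes), with DESeq2 1.42.0 as an alternative, and was tested on simulated data. Each library has its own animal number in the labels, and replicate numbers here follow accession order. Genes named were the 6 score genes, the 25 called higher with the largest differences, up to 4 per list and 10 by rank correlation. A fixed set of receptor and signalling genes was named too. Up to 10 genes called lower could be named, and FOS was the only one without a LOC number. Other list members are given as examples chosen after their values were seen. Alternatives were other scalings, pseudocounts, filters, group sizes and scores, and libraries left out.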

Additional observations from a re-analysis of the deposited data

Results flagged for a closer look

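The score and 25 genes given library by library were examined for a library far from the other 4 of its group, which chance alone yields in about 1 of 20 groups, and 3 of 52 groups held one. In the weak group, Infertile replicate 2 was at 147 CPM of MX1, where the other 4 were at 80.9 to 95.9 CPM. The same library was at 52.1 CPM of PGR, where the other 4 were at 2.56 to 11.9 CPM. In the strong group, High-fertile replicate 5 was at 243.8 CPM of IFI27, where the other 4 were at 128.6 to 161 CPM. The groups were formed by the score, which includes MX1, so the stated chance rate does not hold for the score genes.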

How the results depend on the processing

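Genes higher, genes lower and members of the interferon lists higher were 29, 2 and 21 as reported. With 3 against 3 libraries they were 84, 139 and 26, with 7 against 7 they were 6, 0 and 3, and without the minimum difference 178, 55 and 37. With High-fertile replicate 1 and Infertile replicate 2 set aside they were 14, 0 and 9, and within the 8-library set, an alternative chosen after seeing the data, 77, 42 and 22. With 1 library left out, the genes higher numbered 28 to 110, the genes lower 2 to 13 and the list members 20 to 24. The 110 and the 13 came without High-fertile replicate 3, and the genes lower were 8 without Infertile replicate 1 or Infertile replicate 2. The cause was not tested. TMM scaling, a pseudocount of 0.25, no filter, a mean of at least 1 CPM and a score without any 1 of the 6 genes left the counts within 1.5 times the reported ones. A score without OAS2 exchanged 1 weak library, and 25 of the 29 higher and 0 of the 2 lower genes were called again. Of 3075 values of single named genes under these alternatives, 3015 moved by less than 1 SD between libraries, 60 moved by more, and no called gene changed sign. Part of the 3015 was fixed in advance. The filters, the lack of a minimum difference, and scores without ISG15, MX1, MX2, RSAD2 or IFI6 could not change these values. Those scores chose the same libraries. For the class test, edgeR passed 0 genes under each edgeR alternative, each library left out included, and DESeq2 passed 34. No paired analysis was possible because the labels number no replicates. At totals of 38017136 to 62858724 counts, a count of 0 allows up to 0.0477 to 0.0789 CPM, which limits what can be said of IFN-TAU, IFNG and the trophoblast genes without a count.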
